A study of Homo sapiens with 4 samples.

Results

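The hypoxia and glycolysis genes described here are a fixed set of 41 genes, covering the glycolytic enzymes, transport with the regulators of glycolytic flux, the hypoxia-inducible factor (HIF) system, and further genes that HIF switches on. The rule that selects them lists gene names and uses no measured value, but the set was chosen with earlier results of these data known. Of the 41 genes, 37 had a transcript cluster of their own among the 18417 genes measured. By role, 16 of 17 glycolytic enzymes, 5 of 7 transport and flux regulators, 5 of 5 HIF subunits and oxygen sensors, and 11 of 12 other HIF targets were measured. PGAM1 is on clusters that also name PGAM4, and it and 3 further genes are not analysed here. The 5 measured transport and flux regulators are 2 glucose transporters and 3 regulators of flux, with no lactate transporter among them.

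The study asked what a mutant p53 does in cancer cells that carry it. MDA-MB-468 is a human breast cancer cell line whose endogenous p53 is the R273H mutant, and all samples were this line, grown in standard medium with serum. Control cells carried a non-targeting lentiviral shRNA (NS), and the other cells carried a lentiviral shRNA against p53 named p53si-1. Each group had 2 replicates, described as independent experiments, and each replicate was hybridised to 1 Affymetrix Human Gene 1.0 ST array. A single cell line and a single p53 shRNA were used on the arrays, so an effect of the hairpin other than on p53 cannot be told apart from an effect of p53. The p53 transcript itself, the check of the labels, is not analysed here. The time of RNA collection after transduction differs between the methods and the results of the study, and no oxygen level is given in the labels.

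Glycolysis converts glucose to pyruvate in the cytosol, and lactate dehydrogenase reduces pyruvate to lactate, which regenerates the NAD+ that the pathway consumes. HIF is a pair of proteins, an oxygen-sensitive alpha subunit (HIF1A or EPAS1) and the stable beta subunit ARNT. In oxygen, the prolyl hydroxylases EGLN1 and EGLN3 mark the alpha subunits for destruction, and in hypoxia the alpha subunits persist, so HIF activity is set largely at the level of protein and not of HIF1A transcript. HIF binds the core motif ACGTG and switches on glucose transporters, most glycolytic enzymes, and genes such as VEGFA and NDRG1. Many breast cancers of the basal type, the type that MDA-MB-468 represents, run glycolysis at a high rate even in oxygen.

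The HIF core motif was searched in the promoter, from 250 bases before the start site to 50 after it, since it is the core that HIF binds. RefSeq sequences of GRCh38.p14 matched 34 of the 37 measured genes. ACGTG was searched on both strands, and it lies inside CACGTG, a motif that other factors such as MYC bind. It was present in 14 of 34 promoters (41.2%), beside 21.6% of all 27305 promoters and 24.0% of the 14239 promoters of genes on the arrays. CACGTG was present in 4 of 34 (11.8%), beside 7.43% of all promoters. By role, ACGTG was in 8 of 16 glycolytic enzymes, 5 of 9 other HIF targets, 1 of 5 HIF subunits and oxygen sensors, and 0 of 4 transport and flux regulators. For the 11 genes with several listed start sites the start listed at the top was used. With every listed start site counted, 19 of the 34 genes held the motif, beside 24.9% of all genes. A match of 5 letters is a description of the sequence and not evidence of binding.

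The windows below surround the upstream copy nearest the start site in 6 genes. These genes have the largest difference between the groups among those that hold such a copy. The windows are printed so that the match can be read in its sequence, and use of these copies by HIF was not tested. They run 5′ to 3′ on the strand of the gene, with ACGTG or its complement CACGT in capitals. The 6 genes, in the order printed, lie at chr11:18394465-18394519 (plus strand), chr14:52695643-52695697 (minus strand), chr17:28576896-28576948 (minus strand), chr19:34364805-34364859 (plus strand), chr1:231422288-231422325 (minus strand) and chr12:6914437-6914491 (plus strand).
LDHA: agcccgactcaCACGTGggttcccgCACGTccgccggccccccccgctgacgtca
ERO1A: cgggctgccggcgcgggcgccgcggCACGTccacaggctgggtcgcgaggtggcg
ALDOC: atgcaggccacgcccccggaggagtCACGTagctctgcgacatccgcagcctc
GPI: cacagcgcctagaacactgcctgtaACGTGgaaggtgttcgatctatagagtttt
EGLN1: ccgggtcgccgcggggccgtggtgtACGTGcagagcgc
ENO2: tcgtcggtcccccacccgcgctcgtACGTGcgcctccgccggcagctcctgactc
LDHA, which encodes the lactate dehydrogenase subunit favouring lactate formation, held the most copies, 5 over both strands. They include 4 that overlap in pairs, since CACGTG reads as ACGTG on either strand, and 1 of those pairs stands in the window. PGK1, ALDOC and ANKRD37 each held 3 copies, HK2 and GAPDH each held 2, and the other 8 of the 14 genes held 1.

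Signals are log2 values after robust multi-array averaging (RMA), in which 1 unit is a factor of 2, and a difference is the mean of the 2 p53si-1 arrays minus the mean of the 2 NS arrays. The array medians lay between 5.66 and 5.69, which RMA sets, and the SD over genes of the log2 difference between 2 arrays was 0.173 and 0.182 within the NS and p53si-1 groups and 0.195 to 0.239 between arrays of different groups. The epithelial markers EPCAM, CDH1, KRT8, KRT18, KRT19 and EGFR had signals of 9.38 to 12.59 on all 4 arrays. Of the other cell types' markers, all 5 fibroblast genes lay at 3.04 to 7.32, 3 of the 4 measured leukocyte genes at or below 3.88 with CD14 at 9.69 to 9.92, and 3 of the 4 endothelial genes at or below 5.11. The remaining endothelial marker, KDR, a VEGF receptor, read 8.36 and 8.73 in NS and 8.91 and 9.18 in p53si-1 cells (log2 difference 0.50, limma adjusted p = 0.275). Its part in the results was not tested.

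In p53si-1 cells, every measured hypoxia and glycolysis gene had a mean signal within 1.27-fold of that in NS cells. The differences of the 37 genes ran from -0.34 for P4HA2 to 0.31 for KDM3A, with a median of -0.09, beside a median of -0.01 over all genes. No gene of the set moved by more than 1.5-fold, 0 of 37 in either direction, where 0.652% of all genes were lower and 0.271% were higher by that much. With limma and Benjamini-Hochberg adjustment over all genes, 0 of 37 passed an adjusted p of 0.05, beside 0.109% of all genes (20 genes). That background moved with the processing. It ran from 4 to 149 of 18417 genes over the alternatives that kept all arrays and all genes. With dim genes left out, those under the median signal, it was 220 of 9209 genes. The 95% interval of the difference lay inside 1.5-fold in both directions for 36 of 37 genes (97.3%), beside 91.9% of all genes, and P4HA2 was the exception.

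Below that size the differences leaned to lower signal in p53si-1 cells. The mean was lower in 29 of 37 genes (78.4%), beside 52.6% of all genes, and both p53si-1 arrays lay below both NS arrays in 19 (51.4%), beside 22.6%. Both p53si-1 arrays lay above both NS arrays in 5 (13.5%), beside 19.9%. At an unadjusted p of 0.05 in limma, 9 genes were lower (24.3%, beside 6.8% of all genes), namely TPI1, PFKM, LDHA, SLC2A3, PDK1, EPAS1, ARNT, EGLN3 and NDRG1. KDM3A alone was higher (2.7%, beside 5.45%). For scale, the median difference between the 2 arrays of a group, replicate 2 minus replicate 1, was -0.02 in NS and -0.03 in p53si-1 cells over the 37 genes, and -0.05 and -0.04 over the glycolytic enzymes. This count of 10 at an unadjusted p (12.3% of all genes passed it) became 8 with median centring (12.2%) and 11 with quantile normalization (12.3%). It was 12 with the replicate number in the model (17.0%) and 13 with a signal-dependent prior variance (13.2%). Of the 37 genes, 30 lay at or above the median signal, while the shares over all genes include the dim genes. With dim genes left out, 11 of these 30 passed, beside 19.4% of 9209 genes. Leaving out an array leaves 1 residual degree of freedom and a lone array that is assumed to vary like the other group. Fits without an array therefore have less power. With 2 arrays a group, no exact permutation test of a single gene can give a two-sided p below 0.333, and the number of arrays limits the precision of every value here. In extracts of whole cultures, fewer cells that carry a transcript and less of it per cell cannot be told apart.

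**Figure D1:**
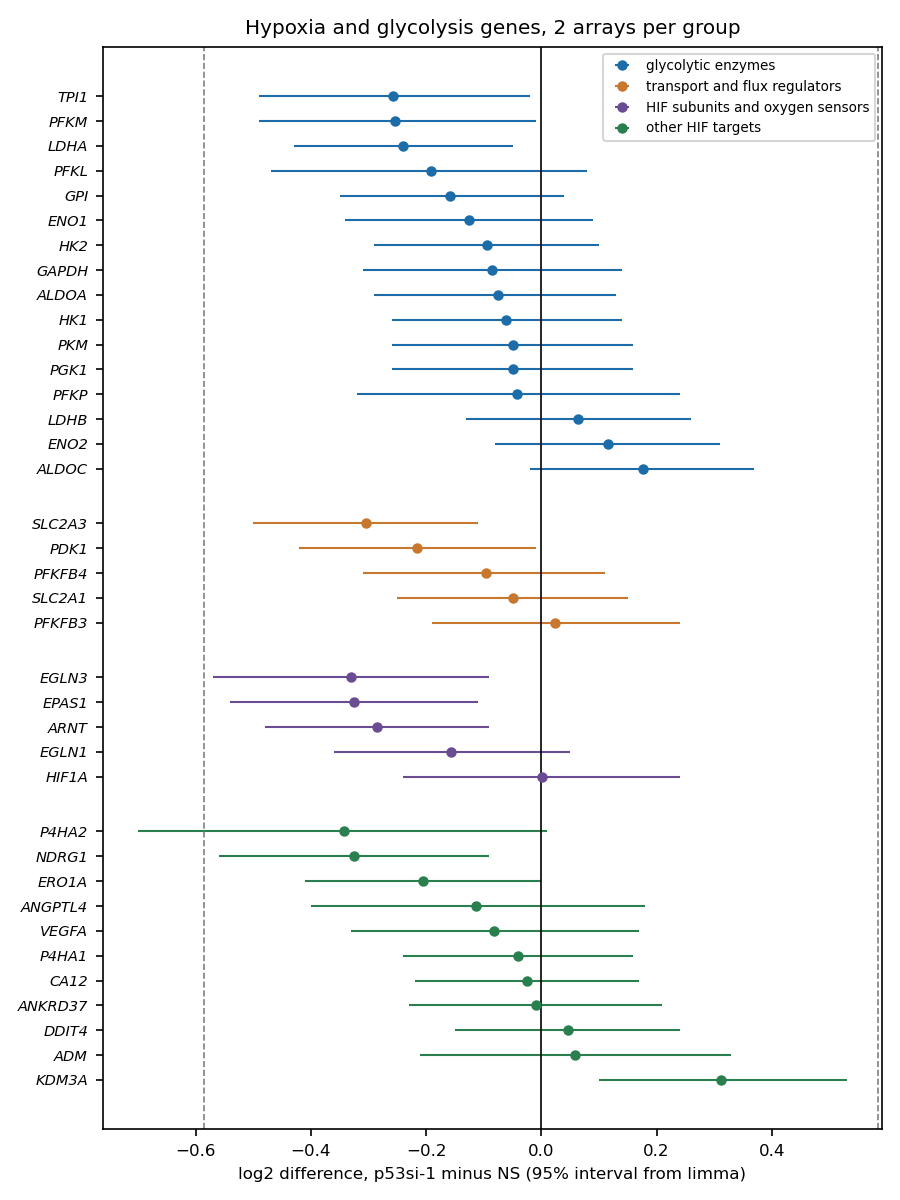
Difference of each of the 37 genes, p53si-1 minus NS, on the log2 scale. Points are differences of the means of 2 arrays, bars are 95% intervals from limma, colours give the role, and dashed lines mark 1.5-fold. All points lie between the dashed lines, and 1 bar, of P4HA2, crosses one of them.

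Among the 16 glycolytic enzymes the median difference was -0.08 and the range -0.26 to 0.18. The mean was lower in 13 (81.2%, beside 52.6% of all genes). At an unadjusted p of 0.05 in limma, 3 were lower (18.8%, beside 6.8% of all genes) and 0 higher (beside 5.45%). These 3 act at separate steps. TPI1, triose phosphate isomerase, gave 11.03 and 10.90 in NS cells and 10.79 and 10.63 in p53si-1 cells. Both p53si-1 arrays were below both controls, by -0.26 (SE 0.0976, unadjusted p = 0.0378, adjusted p = 0.372 in limma). TPI1 is the single gene of the set with a further cluster, which read 8.65 and 8.25 in NS and 8.14 and 8.01 in p53si-1 cells, a difference of -0.37 in the same direction. PFKM, the muscle-type phosphofructokinase of the committed step, gave 8.88 and 8.76 in NS and 8.65 and 8.48 in p53si-1 cells. Its groups did not overlap (difference -0.25, adjusted p = 0.383 in limma).

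LDHA gave 12.51 and 12.53 in NS cells against 12.27 and 12.29 in p53si-1 cells. The 2 arrays of each group lay within 0.02 of each other, and the groups were separated by a difference of -0.24 (SE 0.0795, 95% interval -0.43 to -0.05, unadjusted p = 0.0227, adjusted p = 0.318 in limma), a 1.18-fold lower signal. PFKL, the liver-type phosphofructokinase, gave 9.84 and 9.71 in NS and 9.71 and 9.45 in p53si-1 cells. Its groups met at 9.71, and the difference was -0.19 (adjusted p = 0.568 in limma), or -0.064 without p53si-1 replicate 2. GPI, which converts glucose phosphate to fructose phosphate, read 12.53 and 12.54 in NS and 12.40 and 12.37 in p53si-1 cells, with both p53si-1 arrays lower (difference -0.16, adjusted p = 0.494 in limma).

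ALDOC, the brain-type aldolase, leaned the other way from the enzymes named so far. It read 4.95 and 4.94 in NS and 5.14 and 5.10 in p53si-1 cells, so that both p53si-1 arrays lay above both controls. The difference was 0.18 (95% interval -0.02 to 0.37, adjusted p = 0.443 in limma). ALDOC and ENO2 lay under 6.59, the median signal over genes, where RMA compresses differences, and both drop out when dim genes are left out. The remaining higher means were those of ENO2, the neuronal enolase (0.12), and LDHB, the lactate dehydrogenase subunit favouring pyruvate (0.06).

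GAPDH, the usual loading control of expression studies and itself a glycolytic enzyme, gave 13.69 and 13.70 in NS cells and 13.69 and 13.53 in p53si-1 cells. Its p53si-1 replicate 1 was below the controls by less than 0.01 and replicate 2 by more, and the difference was -0.09 (95% interval -0.31 to 0.14, adjusted p = 0.769 in limma). The other enzymes had small negative differences: ENO1, enolase, -0.12, the hexokinases HK2 and HK1 -0.09 and -0.06, ALDOA, the main aldolase, -0.08, PKM, pyruvate kinase, and PGK1, phosphoglycerate kinase, each -0.05, and PFKP, the platelet-type phosphofructokinase, -0.04. Every one of their 95% intervals spanned 0. GAPDH, PGK1, TPI1, LDHA and LDHB have processed pseudogenes of near-identical sequence, and probes on the array may not separate them from the gene.

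**Figure D2:**
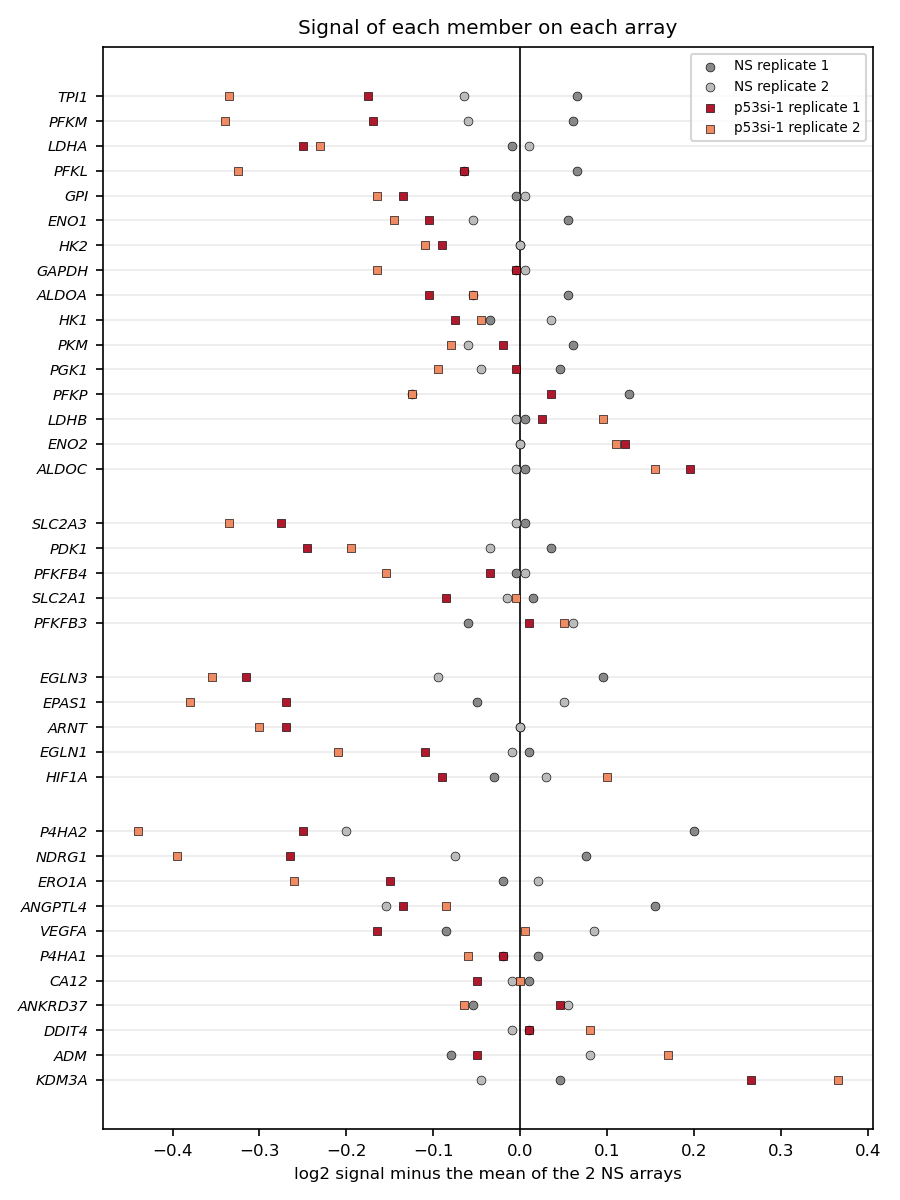
Signal of the 37 genes on every array, as the log2 signal minus the mean of the 2 NS arrays. Circles are NS and squares p53si-1 arrays, and genes are grouped by role and ordered by difference. Squares lie left of both circles in 19 genes and right of both in 5, and the spread between 2 arrays of a group is widest for P4HA2 in NS, at 0.39.

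The 5 transport and flux regulators had a median difference of -0.10 and a range of -0.30 to 0.02. SLC2A1, the glucose transporter GLUT1 and a standard readout of HIF, gave 10.80 and 10.77 in NS and 10.70 and 10.78 in p53si-1 cells. The groups overlapped, with a difference of -0.05 (95% interval -0.25 to 0.15, adjusted p = 0.864 in limma). SLC2A3, the high-affinity transporter GLUT3, gave 4.74 and 4.73 in NS against 4.46 and 4.40 in p53si-1 cells. Both p53si-1 arrays were lower and the arrays of a group agreed closely, with a difference of -0.30 (SE 0.0812, 95% interval -0.50 to -0.11), the lowest unadjusted p of the set, 0.009, and an adjusted p of 0.232 in limma. Its signal also lay under the median over genes of 6.59, and its sequence is close to that of SLC2A14.

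PDK1, a mitochondrial kinase that inactivates pyruvate dehydrogenase and so limits the conversion of pyruvate to acetyl-CoA, gave 8.59 and 8.52 in NS and 8.31 and 8.36 in p53si-1 cells. Its groups did not overlap (difference -0.22, unadjusted p = 0.0392, adjusted p = 0.376 in limma). PFKFB4 and PFKFB3 make the fructose bisphosphate that activates phosphofructokinase. PFKFB4 read 6.43 and 6.44 in NS and 6.40 and 6.28 in p53si-1 cells, a difference of -0.10 that came mostly from replicate 2. PFKFB3 read 7.57 and 7.69 in NS and 7.64 and 7.68 in p53si-1 cells, with overlapping groups and a difference of 0.02.

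The HIF subunits and oxygen sensors had the lowest median of the 4 roles, -0.29. Both p53si-1 arrays lay below both controls in 4 of 5 genes (80.0%, beside 22.6% of all genes). HIF1A, the alpha subunit best known for driving glycolysis, was the exception. It gave 10.36 and 10.42 in NS cells and 10.30 and 10.49 in p53si-1 cells, so the controls lay between the p53si-1 arrays. The difference was 0.00 with a 95% interval of -0.24 to 0.24 (adjusted p = 0.997 in limma).

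EPAS1, the other alpha subunit (HIF-2 alpha), gave 9.38 and 9.48 in NS against 9.16 and 9.05 in p53si-1 cells. The groups were apart by -0.33 (SE 0.0892, 95% interval -0.54 to -0.11, unadjusted p = 0.0102, adjusted p = 0.238 in limma), a 1.25-fold lower signal. ARNT, the shared beta subunit, gave 9.01 in either NS replicate and 8.74 and 8.71 in the p53si-1 replicates. The difference of -0.29 (SE 0.0796, unadjusted p = 0.0108, adjusted p = 0.243 in limma) was many times the gap between arrays of a group, which was at most 0.03.

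EGLN3, an oxygen-sensing prolyl hydroxylase whose own gene is a HIF target, gave 8.04 and 7.85 in NS and 7.63 and 7.59 in p53si-1 cells. Both p53si-1 arrays were lower, by -0.33 on average (95% interval -0.57 to -0.09, adjusted p = 0.268 in limma). EGLN1, the main oxygen sensor among these hydroxylases, read 8.77 and 8.75 in NS and 8.65 and 8.55 in p53si-1 cells. Its groups did not overlap (difference -0.16, adjusted p = 0.519 in limma).

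**Figure D3:**
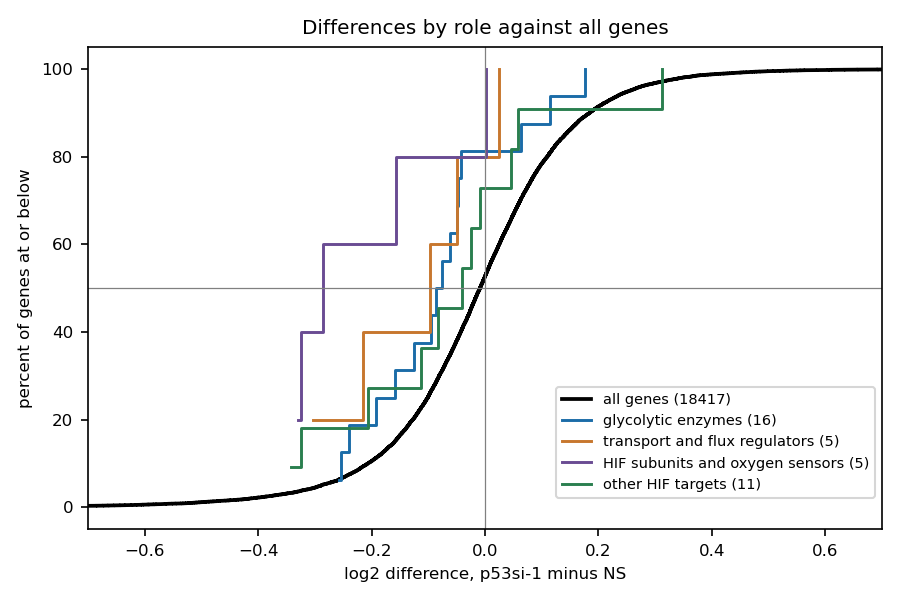
Cumulative distribution of the log2 difference, p53si-1 minus NS, for each role and for all 18417 genes. The vertical axis is the percent of genes at or below a difference, and the horizontal axis leaves out the ends of the curve of all genes, which runs from -1.32 to 1.51. At 50% the curves stand at -0.29 for HIF subunits and oxygen sensors, -0.10 for transport and flux regulators, -0.08 for glycolytic enzymes, -0.04 for other HIF targets and -0.01 for all genes.

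The 11 other HIF targets had a median difference of -0.04 and the widest range, -0.34 to 0.31. Lower means were seen in 8 (72.7%, beside 52.6% of all genes). P4HA2, an alpha subunit of collagen prolyl hydroxylase, gave 8.03 and 7.63 in NS and 7.58 and 7.39 in p53si-1 cells. The NS arrays were 0.39 apart, more than the difference of -0.34 between the groups (95% interval -0.70 to 0.01, adjusted p = 0.42 in limma). The difference became -0.148 without NS replicate 1 and -0.538 without NS replicate 2. NDRG1, a stress-responsive gene widely used as a hypoxia marker, gave 10.07 and 9.92 in NS and 9.73 and 9.60 in p53si-1 cells. Its groups were separate, with a difference of -0.32 (SE 0.098, unadjusted p = 0.0153, adjusted p = 0.275 in limma).

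KDM3A, a histone lysine demethylase, was the gene of the set with the largest positive difference. It gave 6.97 and 6.88 in NS cells against 7.19 and 7.29 in p53si-1 cells, and both p53si-1 arrays were higher. The difference was 0.31 (SE 0.088, 95% interval 0.10 to 0.53, unadjusted p = 0.0114, adjusted p = 0.245 in limma), a 1.24-fold higher signal. ERO1A, an oxidase of the endoplasmic reticulum, gave 9.04 and 9.08 in NS and 8.91 and 8.80 in p53si-1 cells, with separate groups and a difference of -0.21 (adjusted p = 0.41 in limma).

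ANGPTL4, a secreted inhibitor of lipoprotein lipase, read 6.53 and 6.22 in NS and 6.24 and 6.29 in p53si-1 cells. Its NS arrays enclosed both p53si-1 arrays, and the difference was -0.11. VEGFA, the angiogenic growth factor that signals through KDR, gave 8.45 and 8.62 in NS and 8.37 and 8.54 in p53si-1 cells. In both groups replicate 2 was the higher array, the groups overlapped, and the difference was -0.08 (95% interval -0.33 to 0.17, adjusted p = 0.812 in limma). The other 5 targets lay between -0.04 and 0.06, among them P4HA1, the companion of P4HA2 (-0.04), CA12, a membrane carbonic anhydrase (-0.02), and ANKRD37, an ankyrin-repeat gene (-0.01). DDIT4, an inhibitor of mTORC1 signalling, and ADM, the vasodilator adrenomedullin, had differences of 0.05 and 0.06.

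Several steps of the set are served by paralogs, and the log2 ratio of 2 paralogs on the same array shows how their balance differed between the groups. The 12 pairs were chosen after the values were seen, several share a gene, and their ratios are given as a description without a test or a background. The ratio of LDHA to LDHB changed by -0.30, and those of PFKM and PFKL to PFKP by -0.21 and -0.15. In the other direction, HIF1A to EPAS1 changed by 0.33, P4HA1 to P4HA2 by 0.30, EGLN1 to EGLN3 by 0.17 and PFKL to PFKM by 0.06, and HK2 to HK1 changed by -0.03. The remaining 4 pairs hold a gene under the median signal of 6.59 (ALDOC, ENO2, SLC2A3 or PFKFB4), so that their ratios also carry the compression of dim probes. They changed by -0.25 for ALDOA to ALDOC, -0.24 for ENO1 to ENO2, 0.25 for SLC2A1 to SLC2A3 and 0.12 for PFKFB3 to PFKFB4. A ratio on an array shows unequal change, not which member moved.

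**Figure D4:**
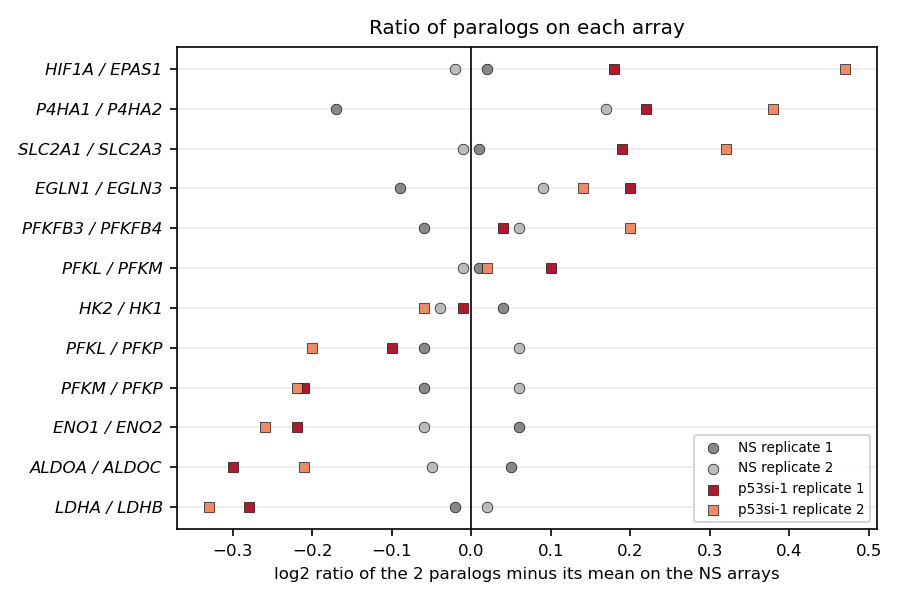
Log2 ratio of 12 pairs of paralogs on each array, minus the mean of that ratio on the 2 NS arrays. Circles are NS and squares p53si-1 arrays. The p53si-1 arrays run from -0.33 for LDHA over LDHB to 0.47 for HIF1A over EPAS1, and the NS arrays are widest apart for P4HA1 over P4HA2.

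Genes of the same pathways outside the set were counted for comparison. Of 38 further HIF targets, 36 were measured, with a median difference of -0.02 and lower means in 19 (52.8%, beside 52.6% of all genes). None passed an adjusted p of 0.05 in limma, beside 0.109% of all genes. At an unadjusted p of 0.05 there were 6 lower (16.7%, beside 6.8%) and 2 higher (5.56%, beside 5.45%). LOXL2, a lysyl oxidase that crosslinks collagen, had the largest difference, -0.79 (1.73-fold lower, adjusted p = 0.0594 in limma), from 9.55 and 9.47 in NS to 8.81 and 8.63 in p53si-1 cells. TMEM45A, a transmembrane protein induced in hypoxia, had a difference of -0.69 (adjusted p = 0.175 in limma), STC1, the hormone stanniocalcin, -0.33, and EDN1, the vasoconstrictor endothelin, 0.44. LOXL2 and TMEM45A were the 2 of the 36 past 1.5-fold, both lower (5.56%, beside 0.652% of all genes).

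Of 14 HIF regulators, 13 were measured, with a median of 0.09. The mean in p53si-1 cells was higher in 10 and lower in 3 (23.1%, beside 52.6% of all genes). None passed either threshold in limma, adjusted (0.109% of all genes) or unadjusted (12.3%). The largest differences were those of ELOC, a subunit of the VHL ubiquitin ligase (0.24), CITED2, which competes with HIF for its coactivators (0.24), ARNT2, a paralog of ARNT (0.20), and EP300, a HIF coactivator (0.15). The beta subunit ARNT and its paralog ARNT2 thus had differences of opposite sign, -0.29 and 0.20. ARNT2 lay under the median signal over genes of 6.59 on every array, where RMA compresses differences. Its arrays were 0.14 apart within each group, and its adjusted p was 0.477 in limma. The contrast in sign is therefore a description, and a rise of ARNT2 is not established.

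Of 42 genes of glucose metabolism around glycolysis, 39 were measured, with a median of -0.05 and lower means in 25 (64.1%, beside 52.6% of all genes). None passed an adjusted p of 0.05 in limma, beside 0.109% of all genes. At an unadjusted p of 0.05, 2 were lower (5.13%, beside 6.8%) and 0 higher (beside 5.45%). BPGM, which makes the bisphosphoglycerate of red cells, had a difference of -0.31. The lactate transporter SLC16A7, the glucose transporter SLC2A12 and RPIA of the pentose phosphate pathway each had -0.23. SLC16A7 read 3.93 and 4.21 in NS and 3.98 and 3.70 in p53si-1 cells. Its groups overlapped, and its signal lay under the median over genes of 6.59.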

How the data were processed

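RNA of MDA-MB-468 cells carrying NS or p53si-1 shRNA was hybridised to Human Gene 1.0 ST arrays (Affymetrix), 2 per group. The authors deposited log2 signals of transcript clusters for each array. RMA, Affymetrix Expression Console and GCOS are the tools listed in the submitters' processing notes, without settings. The log2 scale was read from the range of the values. RMA gives the arrays like distributions, which removes a shift shared by most transcripts, and it compresses changes of dim probes.

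The platform annotation names exactly 1 gene for 19460 of 33297 clusters, several for 1754, and 12083 have no name here. A gene took the values of its brightest cluster (mean of the 4 arrays), leaving 18417 genes with no filter on dim signals. The contrast p53si-1 minus NS was fitted without covariates by lmFit and eBayes (limma 3.58.1, R 4.3.3), on 2 residual degrees of freedom plus a prior of 4.20, with Benjamini-Hochberg adjustment over all genes. The procedure was tested on simulated data. The 1.5-fold criterion is the one used in the study. Alternatives were the choice of cluster, dim genes left out, quantile normalization, median centring, a signal-dependent prior variance, a replicate block, a 1.2-fold criterion and each array left out.

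All 4 arrays are given for the 5 genes of each role with the largest difference and for SLC2A1, LDHA, GAPDH and VEGFA. From each list outside the set the 4 largest differences are named. Members and lists were chosen with earlier results of these data known. Some genes without a named cluster are not reported here.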

Additional observations from a re-analysis of the deposited data

How the results depend on the processing

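No member passed 1.5-fold under any of the 11 alternatives. Under those that kept all arrays, no member passed an adjusted p of 0.05 in limma, and the lowest adjusted p of a member was 0.103. The 4 fits without an array rest on 1 residual degree of freedom, with the lone array assumed to vary like the other group, and say little about stability. Over all genes, the share at an unadjusted p of 0.05 in limma also differed between these 4 fits. Their counts of members at that threshold are therefore not a result about the members. Of 238 values of the 22 genes printed by array, 232 kept their direction, but many of these could not change. The replicate block, the prior variance and leaving out dim genes leave a difference as it was. The choice of cluster can alter only TPI1, the single gene of the set with a further cluster. All 6 reversals came with quantile normalization or an array left out. With arrays left out in turn, members at an unadjusted p of 0.05 numbered 2 to 9 (10 with all arrays), and the medians ran from -0.157 to -0.0868 for transport and flux regulators, -0.3 to -0.233 for HIF subunits and oxygen sensors, -0.0599 to -0.0243 for other HIF targets, -0.0305 to 0.0165 for further HIF targets and 0.0289 to 0.201 for HIF regulators. The median of further HIF targets was above 0 only without NS replicate 1. Over the same arrays left out, the difference ran from -0.0386 to 0.0869 for PFKFB3, -0.0941 to 0.0976 for HIF1A, -0.27 to 0.0438 for ANGPTL4 and -0.169 to 0.0047 for VEGFA, so these 4 have no settled direction, and HIF1A was also -0.0276 with quantile normalization. Leaving out dim genes removed 7 of 37 members and gave medians of -0.0492 (transport and flux regulators) and -0.0614 (other HIF targets). Both p53si-1 arrays lay above both NS arrays in 3 of the 30 members left, since ALDOC and ENO2 were among those removed. No share over the genes left is given beside this 3, so it is not a result about the members. Median centring gave -0.0844 for transport and flux regulators and quantile normalization -0.0648 for other HIF targets. At 1.2-fold, 1 of 37 members was higher and 6 were lower, beside 4.63% and 5.97% of all genes. With the replicate number as a replicate block, 0 members passed an adjusted p of 0.05 and the genes called went from 20 to 12 of 18417. Over the alternatives that kept all arrays and all genes, the genes called ran from 4 to 149 of 18417. With dim genes left out they were 220 of 9209. No source says whether same-numbered arrays shared a culture or a day. The deviations of same-numbered arrays from the group means correlated at 0.24 over genes. The cause of these shifts was not tested.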
